A study of Mus musculus with 7 samples.

Results

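Rab genes encode the small GTPases that direct vesicle traffic, and their transcripts were followed here through mouse oocyte maturation and under a ligand of RNA G-quadruplexes (rG4s). The members were all entries whose symbol is Rab followed by a digit, with symbols containing fip, ip, il or gap left out, which gave 62 of the 25912 entries listed. Of these, 59 are Rab GTPases, and the symbol rule also took Rab5if, a protein-coding gene named for an interaction with Rab5, and the opposite-strand RNAs Rab10os and Rab26os. The level filter was passed by 40 members, 39 of them GTPases and the other Rab5if.

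The libraries were made by Smart-seq2 from 10 oocytes each, taken from 4-week-old C57BL/6 female mice 44 h after PMSG, a gonadotropin that primes follicle growth. Fully grown germinal vesicle (GV) oocytes gave 2 libraries, with the treatment label NO, although the protocol describes all samples as collected after DMSO or BYBX. Oocytes cultured for 16 h to metaphase II (MII) gave 3 libraries with the solvent DMSO and 2 libraries with BYBX, a fluorescent small molecule that binds and stabilises rG4s, at a dose that the methods of this assay do not name. The paper reports that BYBX lowered the rate of first polar body release, and that treated oocytes reaching MII had abnormal spindles. The titles name the BYBX libraries MII, and how far their oocytes had matured is not stated. Incomplete maturation and an effect of the ligand on transcripts thus cannot be told apart. The GV and DMSO libraries carry the genotype label Control and the BYBX libraries Treat, with no allele named, and no label says whether replicates came from separate mice, so p-values measure the spread between these samples, which may be technical. Fully grown GV oocytes are transcriptionally silent, and MII oocytes are arrested after the first meiotic division.

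Rab GTPases cycle between a GTP-bound form that sits on a membrane and recruits effectors (tethers, motors, sorting proteins) and a GDP-bound form that is extracted into the cytosol. Guanine nucleotide exchange factors (GEFs) switch them on, GTPase-activating proteins (GAPs) switch them off, and each Rab marks its own stretch of the secretory or endocytic route. In mouse oocytes, Rab11a-positive vesicles are known for carrying actin nucleators towards the cortex, and Rab3a and Rab27a for the exocytosis of cortical granules that blocks polyspermy.

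Levels are given in FPKM (fragments per kilobase of transcript and sequencing depth, thus per transcript length), which the authors scaled by ERCC spike-in RNA added to each lysate, and batches by their GV samples, with factors that are not stated. The sum over all entries was 402113 and 489569 FPKM in the GV libraries, between 109732 and 127254 FPKM in MII with DMSO, and 201482 and 246710 FPKM in MII with BYBX. Read depth is unknown, and reverse transcription was primed with oligo-dT, so a transcript with a shortened poly(A) tail may be listed low. The 9 oocyte markers summed to between 9608 and 12135 FPKM in GV, 2459 to 3113 FPKM with DMSO and 5399 to 6165 FPKM with BYBX. The 11 granulosa and cumulus markers summed to between 9.14 and 16.5 FPKM in GV, 2.26 to 2.62 FPKM with DMSO and 3.78 to 4.21 FPKM with BYBX, with Ptx3 at 0 in all 7 libraries and Tnfaip6 and Has2 at or near 0. The others included Inha at 5.48 and 1.94 FPKM, Cyp19a1 at 4.49 and 2.19 FPKM and Nr5a2 at 4.43 and 3.24 FPKM in GV, Cyp19a1 was between 1.29 and 1.72 FPKM in the MII libraries, and their part in the results below was not tested. The 8 entries of blood markers summed to at most 2.01 FPKM in any library, with Ptprc at 0 in all, the haemoglobin entries at or near 0 in most and Cd68 between 0.506 and 1.72 FPKM in all 7.

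The Rab sum was 1778 and 1485 FPKM in GV, 382, 368 and 368 FPKM in MII with DMSO, and 765 and 689.6 FPKM in MII with BYBX. The groups did not overlap, and the mean with DMSO was 0.228 of the GV mean, while the mean with BYBX was 1.95 times that with DMSO and 0.446 of GV. Each value is a sum over the oocytes of a library, so fewer contributing oocytes and less RNA per oocyte cannot be told apart. As a share of all FPKM, Rab transcripts made up 0.366% ± 0.00429 in GV (SD, n = 2), 0.312% ± 0.0317 with DMSO (SD, n = 3) and 0.326% ± 0.0227 with BYBX (SD, n = 2). The DMSO and BYBX shares overlapped, and both GV shares lay above them.

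A few members carried a large share of the Rab RNA. The 5 most abundant members held 48.6% ± 0.990 of the Rab sum in GV (SD, n = 2), 53.1% ± 6.70 with DMSO (SD, n = 3) and 48.3% ± 1.75 with BYBX (SD, n = 2). In both GV libraries 22 members were at 10 FPKM or more, and Rab38, Rab7 and Rab11a led both, in that order. With DMSO the lead passed to Rab11a in 2 libraries and to Rab14 in the other, and with BYBX it was Rab38 in both libraries. At the other end, 20 members stayed under 1 FPKM in all libraries, among them Rab6b, Rab3c, Rab27b, Rab15 and Rab37, and Rab19, Rab39, Rab42 and Rab26os were listed at 0 in all of them. The 22 members under the filter reached at most 1.28 FPKM, the value of Rab30 in a GV library. Rab10os, which overlaps the 3′ end of Rab10 on the opposite strand, reached 0.245 FPKM, and reads from the overlap cannot be told apart without strand information.

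**Figure D1:**
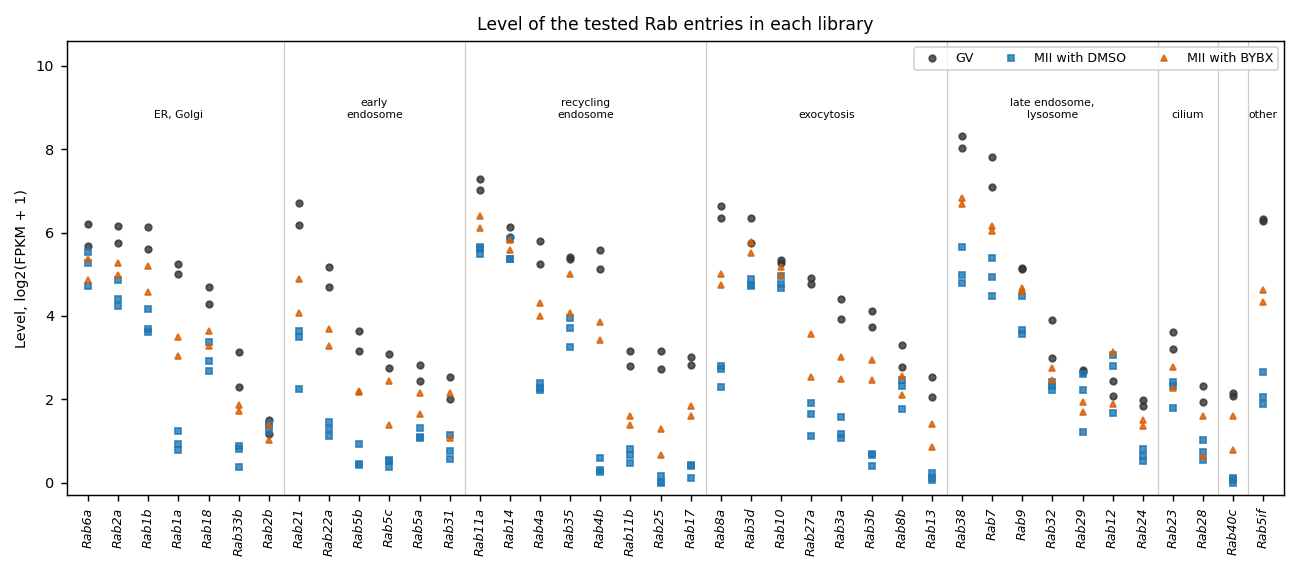
Level of the 40 tested Rab entries in each of the 7 libraries as log2(FPKM + 1), with circles for GV, squares for MII with DMSO and triangles for MII with BYBX, ordered by compartment and GV level. Rab38 is highest in GV at 317 and 261 FPKM, and most members are lowest with DMSO on the deposited scale. All groups of Rab12 and Rab2b overlap, and in some other members, such as Rab6a and Rab14, the MII groups overlap.

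Sequences are shown for the sites that the later comparisons use. The first is the cytoplasmic polyadenylation element (CPE), a U-rich motif near the end of maternal mRNAs that is bound by CPEB1 and guides poly(A) tail length during maturation. The letters TTTTAT or TTTTAAT were searched on the sense strand in the last 100 bases of the longest protein-coding GENCODE vM21 transcript of each gene (GRCm38, the assembly also called mm10). They were found in 7 of the 40 tested members (17.5%), against 20.1% of the 8865 tested entries with a transcript. The 30-base windows below run 5′ to 3′ with the motif in capitals, each in the 3′-UTR of the named gene; Rab18 is the member with a motif that is not shown.
Rab11a, chr9:64715365-64715394, minus strand: tttgtaTTTTATgcatgctctgtatttgga
Rab5a, chr17:53507628-53507657, plus strand: gtttagTTTTATattgaggtgctcaggttg
Rab8b, chr9:66843712-66843741, minus strand: aatgaaTTTTATtccaggtgaacttttttt
Rab6a, chr7:100641168-100641197, plus strand: aagtgcTTTTATaatacacattattgttaa
Rab2b, chr14:52261792-52261821, minus strand: tctaatTTTTATtgttaatgaccgttttac
Rab9, chrX:166457316-166457345, minus strand: gtatatTTTTATgtaattagcattgtattc

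The second is the rG4 motif, since BYBX is an rG4 ligand. It was searched as 4 G runs, each of 3 or more, separated by loops of 1 to 7 bases, on the sense strand of the whole transcript, and it occurred in 8 of the 40 tested members (20.0%), against 18.6% of all tested entries with a transcript. Rab8a carries it in the 5′-UTR, Rab12 and Rab32 in the coding sequence, Rab5c and Rab3d in the 3′-UTR, and Rab35 has a pair of motifs in the 3′-UTR. Rab23 and Rab40c are the other members with the motif. In the sequences below the runs of G are in capitals, and a match shows letters, not a folded structure.
Rab8a, chr8:72161259-72161283, plus strand: GGGcaGGGGGccaataGGGGGcGGG
Rab12, chr17:66519609-66519635, minus strand: GGGtggaGGGtgcgcGGGGGcccGGGG
Rab32, chr10:10558060-10558083, minus strand: GGGcgaGGGactaGGGcaacaGGG
Rab5c, chr11:100715373-100715396, minus strand: GGGGGtGGGtGGGtaaGGGGGGGG
Rab35, chr5:115647539-115647559, plus strand: GGGGtGGGGtGGGGGtaaGGG
Rab35, chr5:115647561-115647585, plus strand: GGGGataaGGGtGGGagaatcaGGG

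The first comparison asked how Rab transcripts change over maturation. Of the 40 tested members, 35 fell from GV to MII with DMSO and 0 rose at an adjusted p under 0.05 (limma on log2(FPKM + 1), adjusted over 9202 entries), a share of 87.5% beside 88.3% of all tested entries lower and 0.272% higher. No member was higher at an unadjusted limma p under 0.05 either, beside 25 of the 9202 tested entries. The median log2 fold change was -2.04 for the members and -1.83 for all tested entries. The 5 members that did not pass were Rab10, Rab12, Rab14, Rab29 and Rab2b. With libraries rescaled to the same total FPKM, 6 members were higher and 19 lower, beside 23.3% and 49.5% of all tested entries, and with libraries centred on their median, 18 were higher and 13 lower, beside 48.8% and 26.7%. The median of all tested entries moved to -0.56 and 0.47 on the log2 scale under these scalings. The GV and DMSO libraries did not overlap for 38 of 40 members, all lower with DMSO, beside 92.5% of all tested entries lower and 0.315% higher.

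The second comparison set MII with BYBX against MII with DMSO. In MII with BYBX, 28 of the 40 members (70.0%) were higher than with DMSO and 0 were lower, beside 65.2% of all tested entries higher and 0.0326% lower. The median log2 fold change was 0.90 for the members and 0.84 for all. No member was lower at an unadjusted limma p under 0.05, beside 5 of the 9202 tested entries. With the same total FPKM, 15 members were higher and 4 lower, beside 39.9% and 8.22% of all tested entries, and with median centring 7 were higher and 14 lower, beside 18.4% and 43.9%. The libraries did not overlap for 30 members, all higher with BYBX, beside 79.0% of all tested entries higher and 0.293% lower.

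Against GV, 32 of the 40 members (80.0%) were lower in MII with BYBX and 0 were higher, beside 69.2% and 0.315% of all tested entries, with a median log2 fold change of -0.99 for both the members and all entries. This count rested partly on GV replicate 1. Without that library a single GV library is left, and the median log2 fold change of the members was -0.89. The matching share of all tested entries is not given, so the change in the count is not read as a trait of the members. With all libraries, no member was higher at an unadjusted limma p under 0.05, beside 36 of the 9202 tested entries. With the same total FPKM 1 member was higher and 1 lower, beside 5.30% and 13.3% of all tested entries, and with median centring 4 were higher and 3 lower, beside 15.2% and 13.6%. The libraries did not overlap for 36 members, all lower with BYBX, beside 82.3% of all tested entries lower and 0.848% higher. The 3 comparisons share libraries, and their values are set side by side for each member below. The median member stood at 18.7% of its GV level with DMSO and at 43.9% with BYBX, beside 16.3% and 43.4% for all tested entries.

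**Figure D2:**
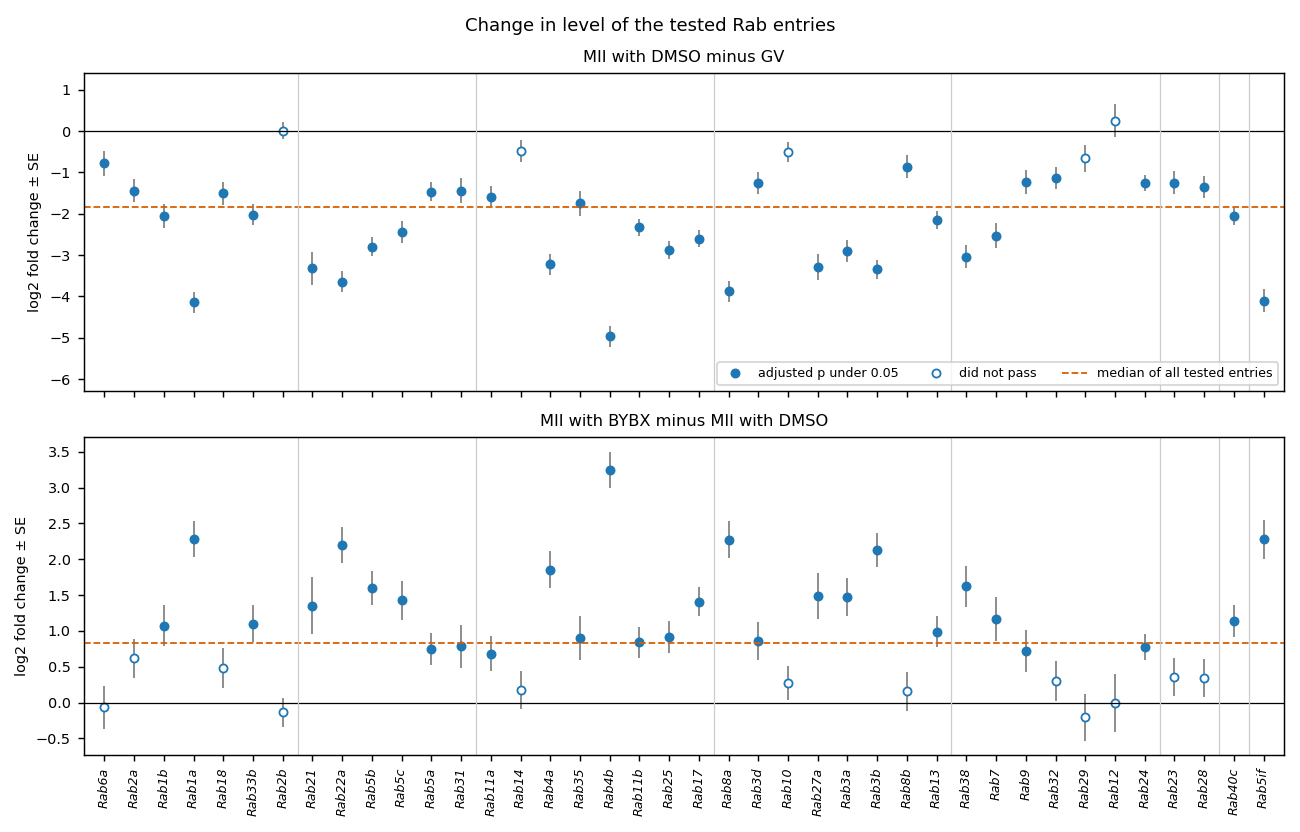
Log2 fold change (points, with SE as bars) of each of the 40 tested Rab entries on the deposited scale, for MII with DMSO minus GV (upper panel) and MII with BYBX minus MII with DMSO (lower panel), with filled points at an adjusted p under 0.05 and a dashed line at the median of all tested entries (-1.83 and 0.84). Rab4b lies lowest in the upper panel and highest in the lower one. With median-centred libraries 18 of the members turn to higher calls in the first contrast, beside 48.8% of all tested entries. They include low members, whose centred values depend on the pseudocount, such as Rab24 (2.77 FPKM in GV and 0.583 FPKM with DMSO).

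The direction of many members turned with the scaling, so the calls that held under each of the 3 scalings were listed. For MII with DMSO against GV, 13 of 40 members were lower under all 3, beside 26.7% of all tested entries: Rab1a, Rab3a, Rab3b, Rab4a, Rab4b, Rab5b, Rab8a, Rab21, Rab22a, Rab25, Rab27a, Rab38 and Rab5if. They include Rabs of several stages, from the endoplasmic reticulum (Rab1a) through endosomes (Rab5b, Rab21, Rab22a, Rab4a, Rab4b) to secretion (Rab3a, Rab3b, Rab8a, Rab27a). With BYBX against DMSO, 7 of 40 members were higher under all 3, beside 18.4% of all tested entries: Rab1a, Rab3b, Rab4a, Rab4b, Rab8a, Rab22a and Rab5if. Rab10, Rab12, Rab14, Rab2b, Rab3d and Rab6a exceeded GV in MII with DMSO under both rescalings, as 23.3% of all tested entries did, and Rab10, Rab14, Rab2b and Rab6a were lower with BYBX than with DMSO under both, as were 8.22%. On the deposited scale none of these was called in those directions.

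**Figure D3:**
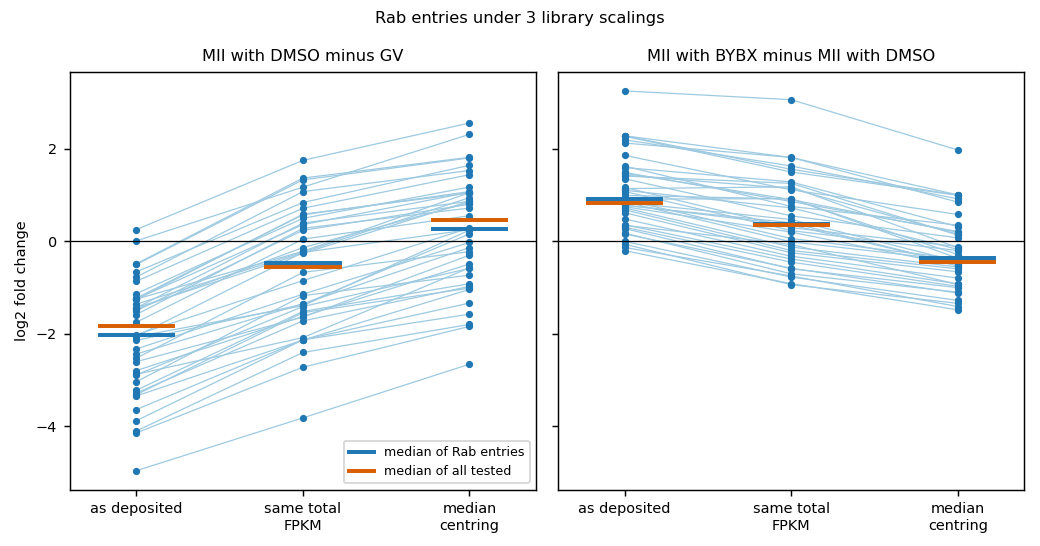
Log2 fold change of the 40 tested Rab entries (points, joined by entry) with libraries as deposited, rescaled to the same total FPKM and median-centred, with bars at the median of the Rab entries and of all tested entries. The Rab median goes from -2.04 over -0.47 to 0.27 for MII with DMSO minus GV and from 0.90 over 0.38 to -0.37 for BYBX minus DMSO.

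Among the Rabs of transport between the endoplasmic reticulum and the Golgi, 7 of 14 were tested, 6 of them lower with DMSO than in GV and 3 higher with BYBX than with DMSO, with medians of -1.50 and 0.62 on the log2 scale, beside 88.3% of all tested entries lower with DMSO and 65.2% higher with BYBX. These medians turned to 0.24 and -0.25 with the same total FPKM. Rab1a, which tethers vesicles arriving at the Golgi, read 37.2 and 31.2 FPKM in the 2 GV libraries, 0.902, 0.713 and 1.38 FPKM in the 3 DMSO libraries and 7.19 and 10.3 FPKM in the 2 BYBX libraries. No groups overlapped, and the DMSO libraries were far below both others. Rab1a fell to 2.92% of GV with DMSO (limma, log2 fold change -4.15 ± 0.25 (SE), adjusted p = 2.80e-09) and rose with BYBX (log2 fold change 2.28 ± 0.25 (SE), adjusted p = 3.77e-06) to a level still below GV (log2 fold change -1.86 ± 0.27 (SE), adjusted p = 1.04e-04). Rab6a, a Rab of retrograde transport through the Golgi, read 73.3 and 50.6 FPKM in GV, 45.2, 37.7 and 25.5 FPKM with DMSO and 28.1 and 40.1 FPKM with BYBX. The GV libraries were above all others, and the MII groups overlapped. Rab6a fell with DMSO (limma, log2 fold change -0.77 ± 0.30 (SE), adjusted p = 0.0274) but did not pass with BYBX against DMSO (log2 fold change -0.06 ± 0.30 (SE), adjusted p = 0.854). By limma, the fall was lost without GV replicate 1 (log2 fold change -0.51, adjusted p = 0.241), without MII DMSO replicate 3 (-0.55, adjusted p = 0.112) and with a replicate block (-0.55, adjusted p = 0.149), and relative to the same total Rab6a was higher with DMSO (1.07). Rab6a also read lower with BYBX than in GV (limma, log2 fold change -0.84 ± 0.33 (SE), adjusted p = 0.0371), a call lost without GV replicate 1 (-0.58, adjusted p = 0.261) and without MII BYBX replicate 1 (-0.59, adjusted p = 0.205).

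The other Golgi Rabs differed in how far they moved. Rab2b, a Golgi Rab listed at 1.83 and 1.25 FPKM in GV, 1.61, 1.66 and 1.36 FPKM with DMSO and 1.05 and 1.605 FPKM with BYBX, overlapped between all groups and did not pass in any comparison. Its paralog Rab2a was more abundant, at 61.2 ± 12.5 FPKM in GV (SD, n = 2), 22.1 ± 5.43 FPKM with DMSO (SD, n = 3) and 33.96 ± 4.86 FPKM with BYBX (SD, n = 2), and was lower with DMSO than in GV (-1.44 on the log2 scale, limma adjusted p = 2.20e-04). Rab1b stood at 58.3 ± 14.7 FPKM in GV (SD, n = 2), 13.3 ± 3.102 FPKM with DMSO (SD, n = 3) and 29.3 ± 9.18 FPKM with BYBX (SD, n = 2), with a log2 fold change of -2.05 for DMSO and 1.08 for BYBX against DMSO, both past the threshold. Rab33b, which acts in the Golgi and in autophagosome formation, changed by -2.02 and 1.10 in the same comparisons and passed in both. Rab18, known from lipid droplets and the endoplasmic reticulum, was lower with DMSO (-1.50) and did not pass with BYBX (0.48, limma adjusted p = 0.135).

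All 6 tested early endosome Rabs, of 7 listed, were lower with DMSO than in GV, and all 6 were higher with BYBX than with DMSO, with medians of -2.62 and 1.39, beside 88.3% of all tested entries lower with DMSO and 65.2% higher with BYBX. Against the same total FPKM 4 of the 6 were lower with DMSO and 3 higher with BYBX, beside 49.5% and 39.9% of all tested entries. With median centring 2 were higher and 3 lower with DMSO and 1 higher with BYBX, beside 48.8%, 26.7% and 18.4%. Rab21, which moves integrins through endosomes, was the most abundant of them at 72.1 and 103 FPKM in the 2 GV libraries, 3.74, 11.4 and 10.4 FPKM in the 3 DMSO libraries and 28.7 and 15.7 FPKM in the 2 BYBX libraries. The GV libraries stood above all others, and the BYBX libraries lay above those with DMSO. Rab21 fell with DMSO (limma, log2 fold change -3.32 ± 0.40 (SE), adjusted p = 2.38e-06) and rose with BYBX (log2 fold change 1.35 ± 0.40 (SE), adjusted p = 0.00865), a rise lost without MII BYBX replicate 1 (0.94, adjusted p = 0.1002). With BYBX it stayed below GV (limma, log2 fold change -1.97 ± 0.43 (SE), adjusted p = 0.00137), at 25.4% of the GV level, where Rab25 stood at 15.01%. Rab22a, another early endosome Rab, stood at 29.98 ± 7.23 FPKM in GV (SD, n = 2), 1.46 ± 0.295 FPKM with DMSO (SD, n = 3) and 10.3 ± 2.28 FPKM with BYBX (SD, n = 2), and its log2 fold changes of -3.64 and 2.19 held in direction under every scaling.

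Rab5a, the Rab that drives fusion of early endosomes, was a low-level member at 4.39 and 6.1 FPKM in GV, 1.47, 1.15 and 1.102 FPKM with DMSO and 2.15 and 3.47 FPKM with BYBX. DMSO was lowest and GV highest, without overlap. Rab5a fell with DMSO (limma, log2 fold change -1.47 ± 0.23 (SE), adjusted p = 3.50e-05) and rose with BYBX (log2 fold change 0.75 ± 0.23 (SE), adjusted p = 0.0113). By limma, the rise was lost without MII BYBX replicate 2 (0.50, adjusted p = 0.114), and with a replicate block (0.70, adjusted p = 0.0524), and the direction of the fall turned under median centring (0.84). Against GV, Rab5a read lower with BYBX (limma, log2 fold change -0.72 ± 0.25 (SE), adjusted p = 0.0207), and this was lost without GV replicate 2 (-0.52, adjusted p = 0.117) or MII BYBX replicate 1 (-0.47, adjusted p = 0.156). Its paralogs Rab5b and Rab5c stood at 9.65 and 6.66 FPKM in GV and fell with DMSO, with log2 fold changes of -2.80 and -2.44. Rab31, a close relative of Rab22a, fell with DMSO (-1.44) and rose with BYBX (0.78) on the log2 scale, although its BYBX libraries (1.11 and 3.44 FPKM) overlapped both other groups.

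Among 8 tested recycling endosome Rabs, of 9 listed, 7 were lower with DMSO and 7 higher with BYBX, with medians of -2.47 and 0.90, beside 88.3% of all tested entries lower with DMSO and 65.2% higher with BYBX. With the same total FPKM 5 were lower and 1 higher with DMSO, beside 49.5% and 23.3% of all tested entries. Under this scaling 4 rose and 1 fell in BYBX against DMSO, beside 39.9% and 8.22%. With median centring 2 were higher and 3 lower with DMSO, beside 48.8% and 26.7%. Here 2 rose and 2 fell in BYBX against DMSO, beside 18.4% and 43.9%, with the second median at -0.37. Rab4b, which returns receptors quickly to the surface, had the largest changes on the log2(FPKM + 1) scale for DMSO against GV and BYBX against DMSO, while Rab25 stood at the lowest percent of GV with DMSO (0.709%). Rab4b read 47.03 and 33.8 FPKM in the 2 GV libraries, 0.202, 0.513 and 0.236 FPKM in the 3 DMSO libraries and 13.4 and 9.77 FPKM in the 2 BYBX libraries. The DMSO libraries were near the bottom of the scale, and the BYBX libraries lay between them and GV without overlap. Rab4b fell to 0.785% of GV with DMSO (limma, log2 fold change -4.96 ± 0.25 (SE), adjusted p = 7.20e-10) and rose with BYBX (log2 fold change 3.25 ± 0.25 (SE), adjusted p = 1.84e-07) to 28.7% of GV (log2 fold change -1.71 ± 0.27 (SE), adjusted p = 1.62e-04). The pseudocount of 1 FPKM shrinks folds of such low values. Both changes kept their direction and call with the same total FPKM (-3.82 and 3.06) and with median centring (-2.66 and 1.97).

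Rab11a, the Rab of the slow recycling endosome, was among the most abundant at each stage, with 156 and 129 FPKM in the 2 GV libraries, 49, 47.4 and 43.8 FPKM in the 3 DMSO libraries and 83.5 and 68.1 FPKM in the 2 BYBX libraries. The groups did not overlap, and the DMSO libraries were lowest. Rab11a fell with DMSO (limma, log2 fold change -1.59 ± 0.25 (SE), adjusted p = 3.20e-05), less than the median entry by 0.25 on the log2 scale, and read higher with the same total FPKM (0.28, not past the threshold) and with median centring (0.72). It rose with BYBX (limma, log2 fold change 0.68 ± 0.25 (SE), adjusted p = 0.02596), a call lost without MII DMSO replicate 2 (0.69, adjusted p = 0.0686), MII DMSO replicate 3 (0.64, adjusted p = 0.0679) or MII BYBX replicate 1 (0.54, adjusted p = 0.188), or with a replicate block (0.64, adjusted p = 0.101). Against GV it stayed lower with BYBX (limma, log2 fold change -0.90 ± 0.27 (SE), adjusted p = 0.00886), except without MII BYBX replicate 2 (-0.76, adjusted p = 0.0759).

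Rab14, which works between the Golgi and endosomes, differed from these. It read 68.8 and 58.9 FPKM in GV, 40.6, 56.4 and 40.1 FPKM with DMSO and 55.8 and 46.8 FPKM with BYBX. The GV libraries were highest by a small margin, and the MII groups overlapped. Rab14 did not pass for DMSO against GV (limma, log2 fold change -0.49 ± 0.26 (SE), adjusted p = 0.0911), for BYBX against DMSO (log2 fold change 0.18 ± 0.26 (SE), adjusted p = 0.554) or for BYBX against GV (log2 fold change -0.31 ± 0.28 (SE), adjusted p = 0.339). Its mean percentile among the 9202 tested entries went from 84.96 in GV to 95.3 with DMSO and 91.4 with BYBX. Rab25, an epithelial relative of Rab11, fell from 7.897 and 5.65 FPKM in GV to 0.124, 0.0202 and 0 FPKM with DMSO (limma, log2 fold change -2.88 ± 0.22 (SE), adjusted p = 2.76e-08) and stood at 0.575 and 1.46 FPKM with BYBX. The BYBX libraries were nearer to DMSO than to GV, and Rab25 was the only member lower with BYBX than in GV under all 3 scalings, as were 11.6% of all tested entries (limma on the deposited scale, log2 fold change -1.97 ± 0.24 (SE), adjusted p = 6.67e-05). The rise from DMSO to BYBX (limma, log2 fold change 0.91 ± 0.22 (SE), adjusted p = 0.00268) took place at levels of at most 1.46 FPKM and turned in direction with median centring (-0.37). At such levels the centred direction depends on the pseudocount. The mean percentile of Rab25 among the 9202 tested entries went from 4.88 with DMSO to 9.18 with BYBX. The other members of the group, Rab4a, Rab11b, Rab17 and Rab35, fell with DMSO, with log2 fold changes of -3.22, -2.33, -2.60 and -1.75, and rose with BYBX by 1.86, 0.84, 1.41 and 0.90.

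The exocytosis Rabs had 8 tested members of 12, with 7 lower with DMSO than in GV and 6 higher with BYBX than with DMSO, and medians of -2.52 and 1.23, beside 88.3% of all tested entries lower with DMSO and 65.2% higher with BYBX. With the same total FPKM 5 were lower and 2 higher with DMSO, beside 49.5% and 23.3% of all tested entries. Under this scaling 5 rose and 1 fell in BYBX against DMSO, beside 39.9% and 8.22%. With median centring 4 were lower and 3 higher with DMSO, beside 26.7% and 48.8%. Here 2 rose and 2 fell in BYBX against DMSO, beside 18.4% and 43.9%, with the second median at -0.0473. Rab8a, which delivers vesicles from the Golgi to the plasma membrane, read 98.1 and 80.9 FPKM in the 2 GV libraries, 5.94, 3.95 and 5.65 FPKM in the 3 DMSO libraries and 31.4 and 25.9 FPKM in the 2 BYBX libraries. No libraries of different groups overlapped, and GV and DMSO lay far apart. Rab8a fell to 5.79% of GV with DMSO (limma, log2 fold change -3.88 ± 0.26 (SE), adjusted p = 6.64e-09), rose with BYBX (log2 fold change 2.27 ± 0.26 (SE), adjusted p = 5.15e-06) and stayed below GV (log2 fold change -1.61 ± 0.28 (SE), adjusted p = 2.92e-04), and the first 2 calls held under every scaling. Its transcript holds the 5′-UTR rG4 motif shown above.

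Rab27a and Rab3a, the members tied to cortical granules, both fell with DMSO. Rab27a read 26.2 and 29.3 FPKM in GV, 1.17, 2.76 and 2.15 FPKM with DMSO and 10.8 and 4.83 FPKM with BYBX. All groups were apart, although the BYBX libraries differed widely from each other. Rab27a fell with DMSO (limma, log2 fold change -3.28 ± 0.32 (SE), adjusted p = 2.80e-07), rose with BYBX (log2 fold change 1.49 ± 0.32 (SE), adjusted p = 0.00107) and remained lower than in GV (log2 fold change -1.79 ± 0.35 (SE), adjusted p = 5.67e-04). Rab3a read 20.4 and 14.1 FPKM in GV, 1.12, 1.25 and 2 FPKM with DMSO and 7.11 and 4.59 FPKM with BYBX. It was likewise lowest with DMSO without overlap, with a fall (limma, log2 fold change -2.89 ± 0.27 (SE), adjusted p = 1.65e-07), a rise with BYBX (log2 fold change 1.47 ± 0.27 (SE), adjusted p = 2.88e-04) and a level below GV (log2 fold change -1.42 ± 0.29 (SE), adjusted p = 8.30e-04). Both falls held under every scaling, whereas the rises did not pass with median centring (0.21 and 0.19). Rab27b, the paralog of Rab27a, reached at most 0.0131 FPKM, and Rab3c at most 0.00171 FPKM.

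Rab3d was the main Rab3 transcript, at 66.4 ± 19.3 FPKM in GV (SD, n = 2), 26.6 ± 1.598 FPKM with DMSO (SD, n = 3) and 49.1 ± 6.47 FPKM with BYBX (SD, n = 2). It fell with DMSO (-1.26, limma adjusted p = 4.60e-04) but was higher with DMSO under both rescalings. Rab3b fell with DMSO (-3.35) and rose with BYBX (2.12) on the log2 scale, in the same direction under all 3. Rab10, which moves vesicles to the cell surface, read 37.3 and 39.7 FPKM in GV, 24.5, 29.95 and 26.4 FPKM with DMSO and 35.02 and 30.5 FPKM with BYBX. All groups were apart, but the steps between them were small. Rab10 did not pass for DMSO against GV (limma, log2 fold change -0.50 ± 0.24 (SE), adjusted p = 0.0637), BYBX against DMSO (log2 fold change 0.27 ± 0.24 (SE), adjusted p = 0.321) or BYBX against GV (log2 fold change -0.23 ± 0.26 (SE), adjusted p = 0.4503), and its mean percentile went from 76.1 in GV to 91.97 with DMSO. By limma, Rab10 passed for DMSO against GV with no minimum level (adjusted p = 0.01897) and with no intensity trend (0.0366). Under the same total FPKM Rab10 was higher with DMSO than in GV (1.33) and lower with BYBX than with DMSO (-0.60). Rab13 fell from 3.95 ± 1.15 FPKM in GV (SD, n = 2), with a log2 fold change of -2.14, and Rab8b fell (-0.86) and did not pass with BYBX (0.16).

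The late endosome and lysosome Rabs held the largest share of Rab RNA in GV, with a sum of 526 ± 106 FPKM (SD, n = 2), against 93.6 ± 17.8 FPKM with DMSO (SD, n = 3) and 213 ± 7.75 FPKM with BYBX (SD, n = 2). Of 9 listed, 7 were tested, 5 lower with DMSO and 4 higher with BYBX, beside 88.3% of all tested entries lower with DMSO and 65.2% higher with BYBX, with medians of -1.23 and 0.72 that turned to 0.49 and -0.13 with the same total FPKM. Rab38, known from melanosomes and other lysosome-related organelles, was the most abundant Rab of GV oocytes, with 317 and 261 FPKM in the 2 GV libraries, 48.98, 30.4 and 26.6 FPKM in the 3 DMSO libraries and 103 and 112 FPKM in the 2 BYBX libraries. The 3 groups were apart, GV by far the highest. Rab38 fell with DMSO (limma, log2 fold change -3.04 ± 0.29 (SE), adjusted p = 2.21e-07), rose with BYBX (log2 fold change 1.63 ± 0.29 (SE), adjusted p = 2.41e-04) and stayed below GV (log2 fold change -1.41 ± 0.31 (SE), adjusted p = 0.00145). The fall held under every scaling, and the rise did not pass with the same total FPKM (0.75).

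Rab7, the Rab of late endosomes and lysosomes, followed with 225 and 136 FPKM in GV, 40.6, 21.4 and 29.5 FPKM with DMSO and 64.6 and 70.1 FPKM with BYBX. Again no groups overlapped, but the GV libraries differed by more than in most members. Rab7 fell with DMSO (limma, log2 fold change -2.53 ± 0.31 (SE), adjusted p = 3.18e-06) and rose with BYBX (log2 fold change 1.16 ± 0.31 (SE), adjusted p = 0.00487). It was lower with BYBX than in GV (limma, log2 fold change -1.37 ± 0.34 (SE), adjusted p = 0.00302), which was lost without GV replicate 1 (-1.01, adjusted p = 0.0624). Rab32, the relative of Rab38, was far lower at 10.4 ± 4.88 FPKM in GV (SD, n = 2), 3.98 ± 0.341 FPKM with DMSO (SD, n = 3) and 5.16 ± 0.874 FPKM with BYBX (SD, n = 2), fell with DMSO (-1.13 on the log2 scale) and did not pass with BYBX (0.30). Rab9, which returns receptors from late endosomes to the Golgi, changed by -1.23 with DMSO and 0.72 with BYBX, and Rab24, tied to autophagy, by -1.25 and 0.77, all past the threshold.

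Rab12, which sends receptors to lysosomes, was the member with the highest log2 fold change for DMSO against GV. It read 3.24 and 4.44 FPKM in GV, 2.19, 7.38 and 6.01 FPKM with DMSO and 7.75 and 2.73 FPKM with BYBX. The 3 groups overlapped, and replicates within each MII group differed by more than the group means. Rab12 did not pass for DMSO against GV (limma, log2 fold change 0.25 ± 0.40 (SE), adjusted p = 0.556), for BYBX against DMSO (log2 fold change 0.00 ± 0.40 (SE), adjusted p = 0.996) or for BYBX against GV (log2 fold change 0.25 ± 0.44 (SE), adjusted p = 0.624), and its first value turned to -0.0225, adjusted p = 0.957, without MII DMSO replicate 2. Rab29, which acts at the Golgi and on stressed lysosomes, read 5.29 and 5.56 FPKM in GV, 3.72, 1.33 and 5.09 FPKM with DMSO and 2.23 and 2.83 FPKM with BYBX. GV was highest, and the MII groups overlapped, with MII DMSO replicate 2 lowest of all. Rab29 did not pass for DMSO against GV (limma, log2 fold change -0.66 ± 0.33 (SE), adjusted p = 0.0716) unless MII DMSO replicate 1 (-0.77, adjusted p = 0.0276) or replicate 3 (-0.95, adjusted p = 0.0141) was left out or the replicate number was a block (-0.95, adjusted p = 0.0173). It did not pass for BYBX against DMSO (limma, log2 fold change -0.21 ± 0.33 (SE), adjusted p = 0.584). It was lower with BYBX than in GV (limma, log2 fold change -0.87 ± 0.36 (SE), adjusted p = 0.045), a call lost without each of the GV and BYBX libraries in turn (adjusted p between 0.0558 and 0.185).

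The remaining members were few. Rab23, a regulator of Hedgehog signalling, and Rab28, which acts at cilia, fell with DMSO (-1.24 and -1.36 on the log2 scale) and did not pass with BYBX (0.36 and 0.34). Rab40c, which joins a ubiquitin ligase, fell from 3.45 and 3.24 FPKM to 0, 0.08003 and 0.0415 FPKM and read 0.732 and 2.03 FPKM with BYBX. Rab5if, which is not a GTPase, read 79.6 and 76.8 FPKM in the 2 GV libraries, 2.69, 3.17 and 5.35 FPKM in the 3 DMSO libraries and 19.3 and 23.7 FPKM in the 2 BYBX libraries. GV was highest and DMSO lowest, without overlap. Rab5if fell with DMSO (limma, log2 fold change -4.10 ± 0.28 (SE), adjusted p = 7.27e-09), rose with BYBX (log2 fold change 2.28 ± 0.28 (SE), adjusted p = 9.09e-06) and stayed below GV (log2 fold change -1.82 ± 0.30 (SE), adjusted p = 1.99e-04). Without it, 34 of 39 GTPases (87.2%) were lower with DMSO and 27 (69.2%) higher with BYBX. These stood beside 88.3% and 65.2% of all tested entries.

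Some calls of the members given in full also ended with no minimum level, where p-values were adjusted over all 25908 entries. By limma, these were the rises with BYBX against DMSO of Rab5a, Rab7, Rab21, Rab25 and Rab27a (adjusted p between 0.0688 and 0.1999), the fall of Rab6a with DMSO (adjusted p = 0.137), and the lower levels with BYBX than in GV of Rab5a, Rab6a, Rab7, Rab21 and Rab29 (adjusted p between 0.0597 and 0.299). By limma, the call for BYBX against GV was also lost for Rab5a with only the groups compared (-0.72, adjusted p = 0.0559), and for Rab29 with a pseudocount of 0.1 (-1.08, adjusted p = 0.0703) and with no intensity trend (-0.87, adjusted p = 0.0529). The fall of Rab7 with DMSO did not pass with the same total FPKM (-0.67) or with median centring (-0.23).

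Paralogs allowed a comparison that no library scaling can change, since the ratio of 2 transcripts is taken within a library. The ratios of 10 pairs are given as a description, since ratios of other gene pairs were not computed and Rab3d and Rab5a each stand in 2 pairs. The exact permutation test cannot go below p = 0.1 with 2 libraries against 3, or below 0.333 with 2 against 2, so no pair could pass a threshold of 0.05. The ratio of Rab4a to Rab4b was 1.16 and 1.09 in GV, 18.8, 7.17 and 18.1 with DMSO and 1.39 and 1.54 with BYBX. GV oocytes thus held similar amounts of both. With DMSO Rab4a fell as well, to 8.58% of GV, and the ratios divide by Rab4b levels of at most 0.513 FPKM. The ratio of Rab1a to Rab1b was 0.541 and 0.651 in GV, 0.0806, 0.0605 and 0.0819 with DMSO and 0.201 and 0.451 with BYBX, a change towards Rab1b with DMSO of -3.01 on the log2 scale. The ratio of Rab8a to Rab8b was 10.98 and 13.8 in GV, 1.33, 0.9798 and 2.36 with DMSO and 9.49 and 5.23 with BYBX. Rab8a went from the dominant paralog in GV to a level near Rab8b with DMSO.

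The Rab5, Rab11 and Rab3 sets are described next. The ratio of Rab5a to Rab5b was 0.386 and 0.771 in GV, 4.36, 3.22 and 1.23 with DMSO and 0.611 and 0.966 with BYBX. The paralog listed higher was Rab5b in GV and Rab5a with DMSO. With DMSO both were low, Rab5b at 0.338, 0.358 and 0.899 FPKM and Rab5a at most 1.47 FPKM. Rab5a against Rab5c gave 0.584 and 1.05 in GV, 4.82, 2.59 and 2.403 with DMSO and 0.486 and 2.14 with BYBX. Rab5c was at most 0.459 FPKM with DMSO. Rab11a was the main Rab11 transcript throughout, with a ratio to Rab11b of 19.5 and 21.8 in GV, 64.2, 124 and 73.6 with DMSO and 51.98 and 33.3 with BYBX. The ratios with DMSO divide by Rab11b levels of at most 0.763 FPKM. Rab3d likewise gained on its relatives with DMSO. The ratio of Rab3a to Rab3d was 0.255 and 0.268 in GV, 0.0394, 0.04896 and 0.0772 with DMSO and 0.132 and 0.103 with BYBX, and that of Rab3b to Rab3d was 0.205 and 0.236 in GV, 0.0112, 0.0243 and 0.0229 with DMSO and 0.126 and 0.102 with BYBX. The pairs Rab2a with Rab2b and Rab22a with Rab31 moved by -1.50 and -2.02 on the log2 scale from GV to DMSO, and in both the BYBX libraries overlapped those with DMSO and those of GV.

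**Figure D4:**
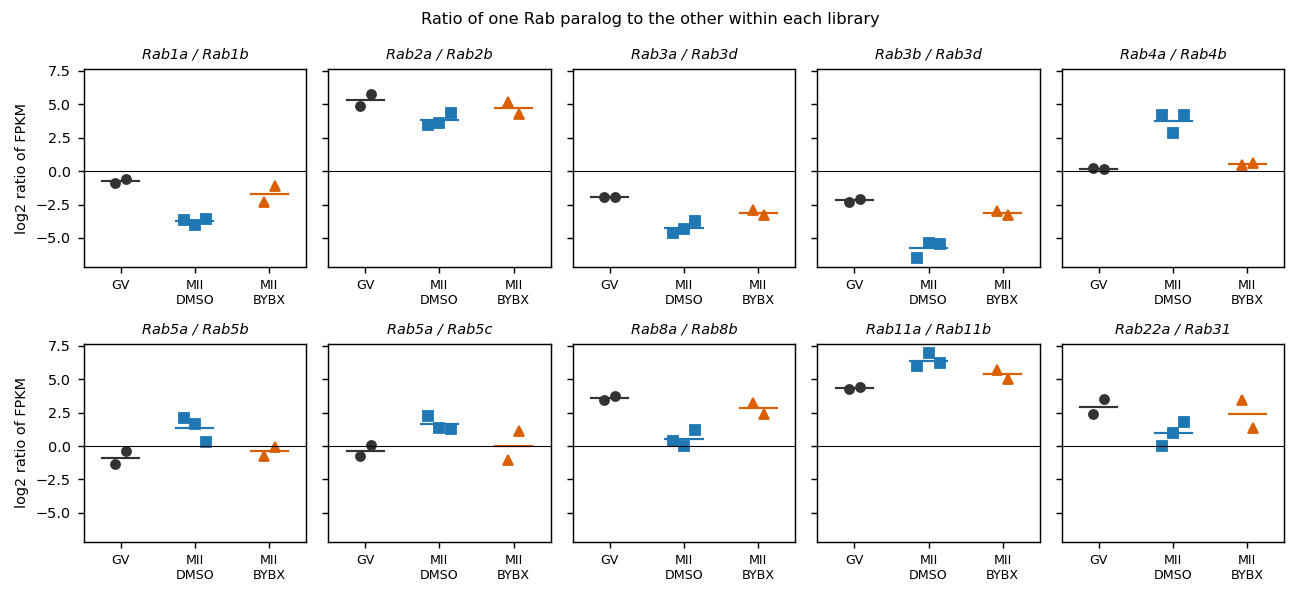
Log2 ratio of the FPKM of the first-named to the second-named Rab paralog within each library (points) with the group mean (bar), for GV, MII with DMSO and MII with BYBX. The ratio of Rab4a to Rab4b goes from about equal in GV (1.16 and 1.09) to at least 7.17 with DMSO and is 1.39 and 1.54 with BYBX. Rab4b is at most 0.513 FPKM with DMSO.

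Several of these pairs differ in the CPE motif. Rab5a, Rab8b, Rab11a and Rab2b hold the motif in the windows shown above, and their paralogs Rab5b, Rab5c, Rab8a, Rab11b and Rab2a do not. In each of these pairs the paralog with the motif gained on the other from GV to MII with DMSO. Their log2 ratios moved by 2.24 (Rab5a to Rab5b), 1.99 (Rab5a to Rab5c), -3.08 (Rab8a to Rab8b), 2.02 (Rab11a to Rab11b) and -1.50 (Rab2a to Rab2b). Those to Rab5b, Rab5c and Rab11b divide by levels of at most 0.899 FPKM with DMSO. The other pairs lack the motif in both paralogs and moved as well. Their values were 3.58 (Rab4a to Rab4b), -3.01 (Rab1a to Rab1b), -2.30 (Rab3a to Rab3d), -3.58 (Rab3b to Rab3d) and -2.02 (Rab22a to Rab31). A part of the motif in these shifts was not tested. Over the tested members, the 7 with the motif had log2 fold changes between -1.59 and 0.01 for DMSO against GV, with a median of -1.23, and the 33 without it a median of -2.33. All tested entries showed medians of -1.26 with and -1.99 without the motif. From DMSO to BYBX the medians were 0.48 with and 1.10 without it among the members, and 0.58 and 0.92 among all entries. The members were chosen with results known, genes are not replicates, and no test was made of the difference. Members without the motif were found at both ends, as Rab10, Rab12 and Rab14 lack the motif in this window and did not pass for DMSO against GV. Allowing any protein-coding transcript of a gene left 7 members with a motif, asking for a polyadenylation signal (AATAAA or ATTAAA) in the last 50 bases left 6, and a window of 60 bases left 3.

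**Figure D5:**
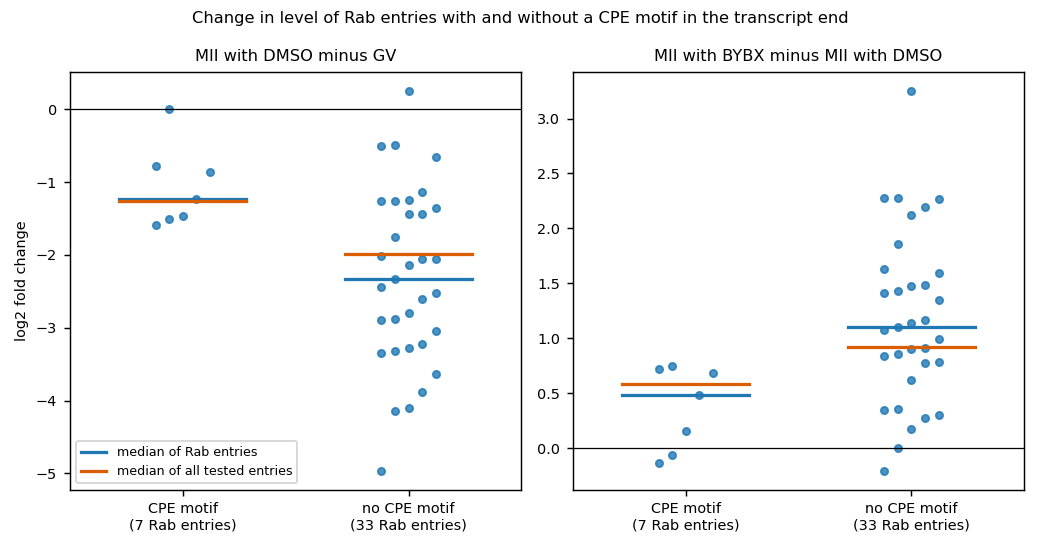
Log2 fold change on the deposited scale of the tested Rab entries with and without a CPE motif in the last 100 bases of the transcript, for MII with DMSO minus GV (left) and MII with BYBX minus MII with DMSO (right), with bars at the medians of the Rab entries and of all tested entries. The 7 entries with a motif lie at -1.59 or above in the left panel and at 0.75 or below in the right one, while those without span -4.96 to 0.25 and -0.21 to 3.25.

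The rG4 motif was treated likewise. The 8 members with it had a median log2 fold change of -1.51 for DMSO against GV and 0.88 for BYBX against DMSO, and the 32 without it -2.10 and 0.95. All tested entries stood at -1.59 and 0.77 with the motif and at -1.90 and 0.86 without it. Members with the motif spanned most of the range, from Rab8a (-3.88 and 2.27) to Rab12 (0.25 and 0.00), and Rab35, with a pair of motifs, stood at -1.75 and 0.90. With loops of up to 12 bases 15 members (37.5%) had a motif, beside 33.3% of all tested entries with a transcript. The longest transcript of the members had a median of 2436 bases, against 2984 over all tested entries. Across the 40 members, length correlated with the log2 fold change from GV to DMSO with a Spearman coefficient of 0.09, against 0.33 across the 8865 entries, and GC content at -0.31 against -0.19. These coefficients are across genes, which share libraries and are not independent.

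The other genes of the Rab cycle were described by lists. All 5 tested genes of prenylation and membrane cycling, of 7 listed, were lower with DMSO than in GV, and all 5 were higher with BYBX than with DMSO, with medians of -2.93 and 1.15, beside 88.3% of all tested entries lower with DMSO and 65.2% higher with BYBX. With median centring the second median turned to -0.13. Gdi2, a GDP dissociation inhibitor that keeps Rabs soluble, read 127 and 86.6 FPKM in GV, 5.295, 5.59 and 4.33 FPKM with DMSO and 24.1 and 22.8 FPKM with BYBX. The groups did not overlap, and Gdi2 fell (limma, log2 fold change -4.13 ± 0.26 (SE), adjusted p = 3.58e-09) and rose (log2 fold change 2.02 ± 0.26 (SE), adjusted p = 1.43e-05). Rabggta, the alpha subunit of the enzyme that attaches geranylgeranyl lipids to Rabs, read 19.1 and 13.8 FPKM in GV, 0.631, 0.597 and 0.358 FPKM with DMSO and 6.15 and 5.38 FPKM with BYBX. It was also lowest with DMSO without overlap, with a fall (limma, log2 fold change -3.50 ± 0.23 (SE), adjusted p = 5.43e-09) and a rise (log2 fold change 2.15 ± 0.23 (SE), adjusted p = 2.73e-06).

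Of 34 listed GEF entries 21 were tested, with 16 lower with DMSO and 10 higher with BYBX (76.2% and 47.6%, beside 88.3% of all tested entries lower with DMSO and 65.2% higher with BYBX), and medians of -1.42 and 0.65 that moved to 0.05 and -0.08 with the same total FPKM. Rab3il1, an exchange factor of Rab8 and Rab3, had the largest fall, from 60.3 and 39.7 FPKM in GV to 0.254, 0.289 and 0.442 FPKM with DMSO and 11.8 and 14.02 FPKM with BYBX (limma, log2 fold change -5.23 ± 0.25 (SE), adjusted p = 4.77e-10 and log2 fold change 3.38 ± 0.25 (SE), adjusted p = 1.25e-07). Rab3ip, its relative that activates Rab8a, changed by -3.92 and 2.46 on the log2 scale, and Ankrd27, an exchange factor of Rab21 that also binds Rab32 and Rab38, by -4.27 and 2.36. Among the GEFs that did not pass with DMSO were Ric1 (-0.06) and Rgp1 (0.15), which form the exchange factor of Rab6a, and Ccz1 (0.11), part of that of Rab7.

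GAPs and effectors were read against the same background of 88.3% of all tested entries lower with DMSO and 65.2% higher with BYBX. Of 37 GAPs 27 were tested, with 24 lower with DMSO and 16 higher with BYBX, and medians of -1.53 and 0.77. Tbc1d10a, which acts on Rab27a and Rab35, changed by -4.13 and 2.203, and its relative Tbc1d10b by -3.88 and 2.38. Evi5 (-0.34), a GAP tied to Rab11, did not pass with DMSO. Of 45 effector entries 28 were tested, with 25 lower with DMSO and 18 higher with BYBX, and medians of -1.56 and 0.76. Optn, an effector of Rab8a, changed by -4.57 and 2.49, Rph3al, an effector of Rab3a and Rab27a, by -4.14 and 2.48, and Rilpl1, an effector of phosphorylated Rab8a and Rab10, by -4.41 and 1.03. Under median centring the medians of GEFs, GAPs and effectors turned to 0.88, 0.77 and 0.74 for DMSO against GV. For BYBX against DMSO they turned to -0.63, -0.50 and -0.52. In the latter 4 GAPs were higher and 11 lower, and 4 effectors higher and 13 lower, beside 18.4% and 43.9% of all tested entries.

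The Arf, Arl and Sar genes, another family of small GTPases in membrane traffic, were described in the same way. Of 20 tested genes 16 were lower with DMSO and 10 higher with BYBX, with medians of -1.64 and 0.65. These stood beside 88.3% of all tested entries lower with DMSO and 65.2% higher with BYBX, and the difference from the Rab genes was not tested. The medians went to -0.02805 and -0.0329 with the same total FPKM and to 0.66 and -0.63 with median centring. With the centring 11 were higher and 3 lower with DMSO, beside 48.8% and 26.7% of all tested entries. In BYBX against DMSO it gave 10 lower and 3 higher, beside 43.9% and 18.4%. Arl2, which acts in tubulin folding, fell the most in this family, from 258 and 232 FPKM in GV to 5.72, 4.96 and 8.22 FPKM with DMSO.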

How the data were processed

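Reads of 7 Smart-seq2 libraries were trimmed by the authors with Trim Galore 0.6.7, aligned to mm10 with HISAT2 2.2.1 and quantified with Cufflinks 2.2.1 on UCSC gene models. The deposited FPKM values had been scaled by the authors to the ERCC RNA and, between batches, to GV samples, so a direction can depend on this scaling. No read counts are given, so the depth is unknown and no counting interval was made. Libraries were grouped by their treatment and title labels. Of 25912 entries, 4 with a missing value were left out. The 9202 entries with a mean of the 3 group means of at least 1 FPKM were tested on log2(FPKM + 1) with limma 3.58.1 in R 4.3.3 (empirical Bayes with an intensity trend), all 7 libraries in 1 fit, and p-values were adjusted by Benjamini-Hochberg over all 9202 entries with a threshold of 0.05. The fit was tested on simulated data. Folds of low entries are understated by the pseudocount. Median centring shifted values after the pseudocount was added, so its directions and calls for low members depend on the pseudocount.

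The alternatives were a pseudocount of 0.1, a minimum of 5 FPKM, no minimum, the same total FPKM, median centring, 2 groups only, a replicate block, no trend, a minimum of 2-fold, summed repeated names and leaving out each library. The members and lists were chosen with earlier results of these data known. Every member could be named. Full statistics were given for the 6 highest in GV, for the 4 lowest and 4 highest log2 fold changes among members reaching 5 FPKM in one of the groups compared (3 for BYBX against GV), and for Rab27a, Rab3a, Rab11a, Rab5a and Rab7; from each list, up to 2 called genes with the largest falls and rises were named by the same minimum. Ric1, Rgp1, Ccz1 and Evi5 were named after their values were seen. Sequences are of GRCm38 with GENCODE vM21, which matched 96.3% of the tested entries. Exact permutation tests of ratios were two-sided.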

Additional observations from a re-analysis of the deposited data

How the results depend on the processing

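The count of members lower with DMSO than in GV went from 35 to 23 of 25 with a minimum of 5 FPKM, 19 with the same total FPKM and 13 with median centring, and that of members higher went from 0 to 6 and 18 under these scalings. The count higher with BYBX than with DMSO went from 28 to 17 of 25 with 5 FPKM, 15 with no minimum, 15 with the same total, 7 with median centring and 18 with a minimum of 2-fold, and the count lower from 0 to 4 and 14. The count lower with BYBX than in GV went from 32 to 21 of 25, 18, 1, 3 and 20 under the same settings, and the count higher from 0 to 1 and 4 under the scalings. Fewer members are tested at 5 FPKM. Shares of all tested entries are given above for the deposited scale and both rescalings only. For the other settings, including a library left out and the replicate block below, changes in these counts are not read as traits of the members. Leaving out 1 library gave 33 to 36, 23 to 27 and 21 to 33 for these 3 counts, the lowest of the last without GV replicate 1, and 0 in the opposite directions. The cause of the other changes was not tested. The median log2 fold change of the members turned under median centring to 0.27, -0.37 and 0.0309 for DMSO against GV, BYBX against DMSO and BYBX against GV, and without 1 library it lay between -2.203 and -1.77, 0.905 and 0.95 and -1.22 and -0.89. Among the members given in full, log2 fold changes turned in direction with same total FPKM for DMSO against GV Rab10 1.33, Rab11a 0.28, Rab14 1.37, Rab29 0.84, Rab6a 1.07, for BYBX against DMSO Rab10 -0.597, Rab11a -0.2002, Rab14 -0.705, and for BYBX against GV Rab10 0.73, Rab11a 0.0779, Rab14 0.66, Rab5a 0.0598, Rab6a 0.13. Among the members given in full, log2 fold changes turned in direction with median centring for DMSO against GV Rab10 1.801, Rab11a 0.72, Rab14 1.82, Rab29 1.64, Rab5a 0.84, Rab6a 1.53, for BYBX against DMSO Rab10 -1.004, Rab11a -0.598, Rab14 -1.102, Rab25 -0.37, Rab5a -0.53, Rab7 -0.11, and for BYBX against GV Rab10 0.798, Rab11a 0.12, Rab14 0.71, Rab29 0.16, Rab5a 0.31, Rab6a 0.19. Rab12 for BYBX against DMSO also turned with a pseudocount of 0.1 (0.0008). Without 1 library, log2 fold changes ranged for DMSO against GV Rab10 -0.58 to -0.44, Rab11a -1.72 to -1.45, Rab12 -0.0225 to 0.67, Rab14 -0.64 to -0.38, Rab29 -0.95 to -0.26, Rab5a -1.67 to -1.27, Rab6a -1.04 to -0.51, for BYBX against DMSO Rab10 0.18 to 0.37, Rab11a 0.54 to 0.83, Rab12 -0.62 to 0.61, Rab14 0.0507 to 0.33, Rab25 0.59 to 1.23, Rab29 -0.61 to 0.0865, Rab5a 0.496 to 0.999, Rab6a -0.31 to 0.18, Rab7 0.94 to 1.39, and for BYBX against GV Rab10 -0.32 to -0.13, Rab11a -1.05 to -0.76, Rab12 -0.36 to 0.86, Rab14 -0.44 to -0.19, Rab29 -0.99 to -0.74, Rab5a -0.97 to -0.47, Rab6a -1.103 to -0.58.

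With a replicate block the 3 counts were 34, 25 and 30, and Rab12 and Rab29 for BYBX against DMSO turned to 0.14 and 0.0865. Among the members given in full, the block also ended the calls of Rab5a and Rab11a for BYBX against DMSO and of Rab6a for DMSO against GV, and made Rab29 pass for DMSO against GV. The deviations of same-numbered libraries correlated at 0.487 and 0.282 for DMSO with GV and -0.601 and -0.348 for BYBX with DMSO. For BYBX with GV both values were -0.33, which are equal by construction with 2 libraries per group. The paper describes batches scaled to their GV samples, but no label says which library belongs to which batch. Whether same-numbered libraries share a batch is thus unknown. Over all 40 tested members, 2 were above 0 for DMSO against GV as deposited, 15 with the same total FPKM and 23 with median centring. Of all 9202 tested entries, 161, 3479 and 5780 were above 0 in the same order. Over all alternatives, 732 values of named members kept direction and side of the threshold, 70 lost the call, 11 gained one and 42 turned. CPE motifs within 60 bases of the end were found in 3 members, rG4 motifs with runs of 2 G in 40 and with loops of up to 12 bases in 15. Of all tested entries with a transcript, 13.5%, 97.2% and 33.3% had these motifs. Signal depth per library is unknown, so low members cannot be told from undetected ones.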
